A study of Sus scrofa with 21 samples.

Results

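The results cover the vasoactive and angiogenic signals of the pig uterine endometrium: NOS2, ANGPT2, HIF1A, VEGFA, CALCB, RAMP1 and HTR2A. All probes whose RefSeq accession belongs to 1 of these symbols were taken, which gave 15 probes of 43603 on the array and 8 genes of 2393 that could be named. There are more genes than symbols because 2 pig genes carry the symbol CALCB. One has the synonym CGRP (calcitonin gene-related peptide) and the other CRSP1 (calcitonin receptor-stimulating peptide 1), and they are called by these synonyms here. In the Sscrofa11.1 annotation they lie on either side of CRSP3 and CRSP-2. NOS2 had 5 probes, HTR2A, VEGFA and HIF1A 2 each, and the other genes 1 each.

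The arrays were Agilent 1-colour arrays of Large White sows, 21 in 7 groups of 3. Pregnant sows, 3 per period, were sampled on day 13, 18 or 24 after insemination, at places where a conceptus was attached (attachment sites) and between them (inter-sites). The non-pregnant group was 3 sows that had received inactivated sperm of the same boar and were sampled on day 13 at comparable places, so a day 18 or 24 control was not analysed here. Every level below is the log2 processed signal of a probe minus the 75th percentile of its array, which allows a probe to be compared between arrays but not with another probe. A change is the difference of 2 group means on that log2 scale with the SE of the limma fit, and it passed the test at a Benjamini-Hochberg adjusted p under 0.05. These p-values measure the spread between 3 arrays a group, and the 3 attachment-site and 3 inter-site libraries of a day came from 3 sows, without a label that ties a library to its animal.

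The endometrium is remodelled during implantation, when blood flow and vessel permeability rise near the conceptus. VEGFA is a secreted growth factor that drives vessel sprouting and permeability, and ANGPT2 is a ligand of the endothelial TIE2 receptor that loosens vessels and makes them responsive to VEGFA. HIF1A is the oxygen-regulated subunit of a transcription factor with VEGFA among its target genes, and it is controlled mainly through protein stability. NOS2 is the inducible nitric oxide synthase; nitric oxide relaxes vascular and uterine smooth muscle. CGRP is a vasodilator peptide released by sensory nerve fibres, and RAMP1 is the accessory protein that turns the calcitonin receptor-like receptor into its receptor. CRSP1 is a peptide of the same family that acts on the calcitonin receptor. HTR2A is a serotonin receptor through which serotonin contracts smooth muscle.

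Tests covered 13 of the 15 probes and 30094 probes in all, namely those with a signal well above background throughout at least 1 group of 3 arrays. The CGRP probe and 1 of 5 NOS2 probes had no signal well above background in any library, so 7 genes could be followed. Of 6 endometrial markers on the array (ACP5, ESR1, LPAR3, PGR, RBP4 and SPP1) 5 were well above background throughout. Arrays did not all follow their labels. DKK1, a secreted WNT inhibitor that is strongly expressed in pregnant pig endometrium, lay between −5.37 and −4.63 in the non-pregnant group and above 0 on 16 of 18 arrays of pregnant sows. The exceptions were replicate 1 of the day 13 inter-sites at −3.24 and replicate 3 of the day 24 inter-sites at −6.13. The day 24 library correlated best with non-pregnant replicate 3 (r = 0.988 over the tested probes, 0.942 at most with its own group), and the pair matched at 91.0% of 100 on-off probes, which are probes with a clear gap between high and low arrays. Non-pregnant replicates 1 and 2 matched each other at 91.0% of these probes, and replicate 1 of the day 13 attachment sites matched replicate 2 of the day 13 inter-sites at 93.0%. For comparison, libraries of pregnant sows from different days matched at up to 84.0%. That pair was replicate 1 of the day 18 attachment sites and replicate 1 of the day 24 inter-sites. PGR, the progesterone receptor, was at 3.01 to 3.43 in the non-pregnant group, at 3.03 in the low-DKK1 library of day 24 and at 0.77 to 2.15 elsewhere. Results that rest on the low-DKK1 libraries are given with and without them. These libraries were picked from these data, by a gene that differs with pregnancy. Leaving them out can therefore favour a difference between pregnant and non-pregnant arrays, so a call gained that way is no added support.

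Pregnancy on day 13 went with less HTR2A at both sites and less CRSP1 at attachment sites. From day 18 to 24 at attachment sites 1 of 2 VEGFA probes passed as higher and the lead probe did not. The count of members that passed there was near the share of all tested probes. At attachment sites on day 13, 3 of 13 member probes passed against the non-pregnant group, both HTR2A probes and CRSP1, where 1.79% of all tested probes passed and 0.947% passed as lower. At inter-sites on day 13, 2 of 13 passed, both for HTR2A, against 0.449% of all and 0.306% as lower. From day 18 to 24 at attachment sites 1 of 13 passed, a VEGFA probe, against 5.64% of all and 3.89% as higher. At an unadjusted p under 0.05 there were 7 member probes in the attachment-site comparison (20.3% of all) and 4 from day 18 to 24 (23.3% of all). In limma 0 of 13 member probes passed in the other 6 comparisons. Between sites on day 13 and day 18 no probe of the array passed, and at an unadjusted p under 0.05 there were 0 and 1 member probes, beside 8.13% and 4.69% of all. Between sites on day 24 0.279% of all passed, and 3 member probes had an unadjusted p under 0.05, where 8.01% of all did. From day 13 to 18 at attachment sites 1.79% of all passed, and 0 member probes had an unadjusted p under 0.05 (21.3% of all). At inter-sites 0.00665% passed from day 13 to 18 and 0.143% from day 18 to 24, with 1 and 5 member probes at an unadjusted p under 0.05 (5.5% and 14.1% of all). In the F-test over all 7 groups 6 of 13 member probes passed, where 13.4% of all did (10 of 13 and 32.2% at an unadjusted p under 0.05): both HTR2A probes, the lead probes of NOS2, CRSP1 and RAMP1, and the dimmer HIF1A probe. The lead probe of a gene is its brightest one on average.

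**Figure D1:**
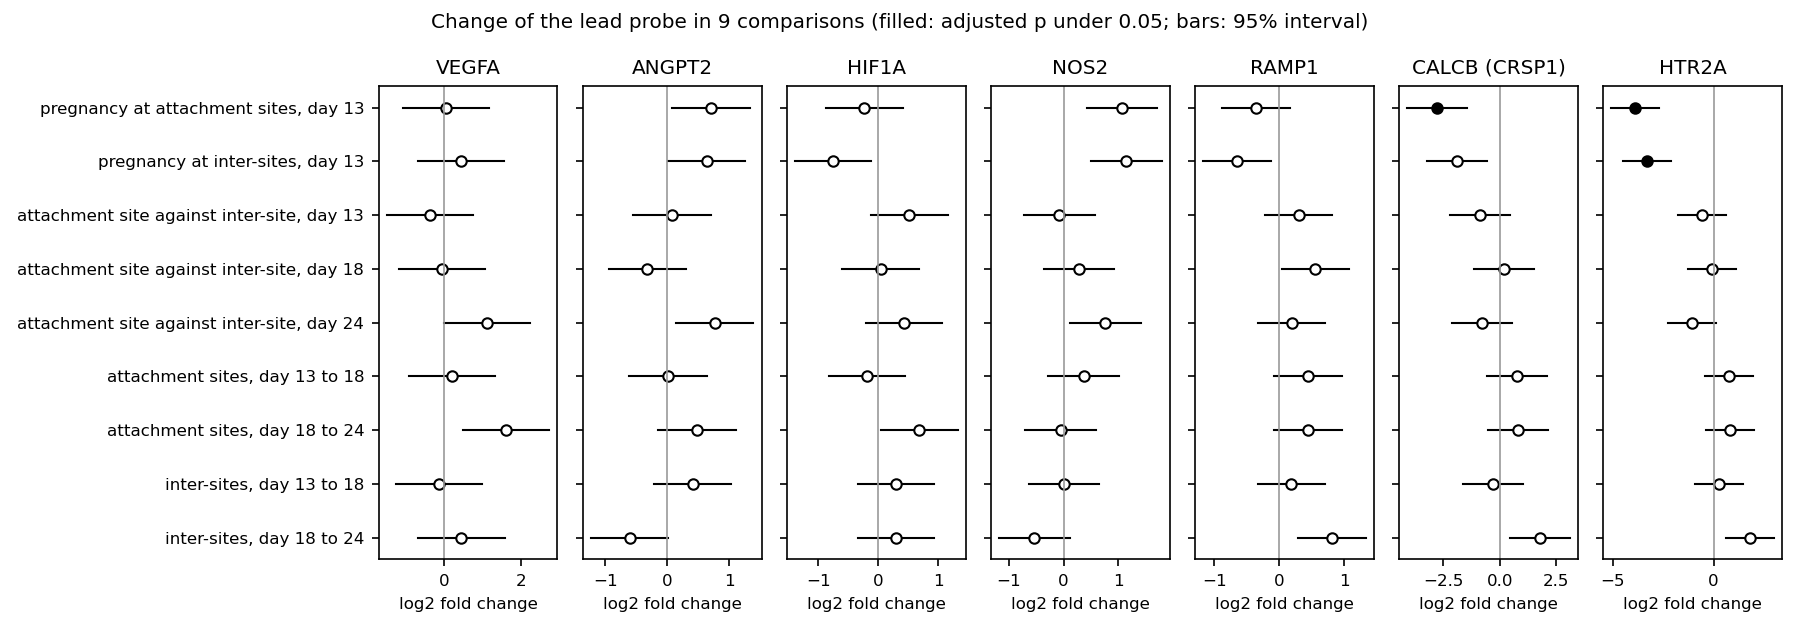
Log2 fold change (x axis) of the lead probe of 7 genes in 9 comparisons (y axis), with 95% intervals from limma; filled points have an adjusted p under 0.05. The 3 filled points are HTR2A in both comparisons of pregnancy on day 13 (−3.88 and −3.29) and CRSP1 at attachment sites (−2.76); the VEGFA probe that passed from day 18 to 24 is the dimmer one and is not drawn.

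VEGFA was highest at day 24 attachment sites. On its lead probe the 3 arrays of that group read 1.13, 1.77 and 2.12. Day 18 attachment sites read 0.76, 0.21 and −0.81, so the groups did not overlap. The change was 1.62 (SE 0.53, a 3.07-fold difference), with a limma adjusted p of 0.0825. The second, dimmer VEGFA probe read −0.25, 0.47 and 0.71 at day 24 attachment sites against −0.97, −2.25 and −2.20 at day 18. It rose by 2.12 (SE 0.57), 4.33-fold, with an adjusted p of 0.0390. Both probes thus placed every day 24 attachment array above every day 18 one, and the probes correlated at r = 0.913 over 21 arrays. With the slide as a block the change of the dimmer probe was 2.01 (adjusted p = 0.119), and within the only slide that held both groups it was 2.93. The call was lost without replicate 2 or 3 of either group (adjusted p = 0.102 without either day 18 array, 0.142 and 0.157 without the day 24 ones).

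The other groups spread widely around VEGFA's lower levels. Day 24 inter-sites read 1.30, 0.58 and −0.22 on the lead probe, the last being the low-DKK1 library. The difference between sites on day 24 was 1.12 (SE 0.53, adjusted p = 0.624) on the lead probe and 1.40 (SE 0.57, adjusted p = 0.521) on the dimmer one, whose value without the low-DKK1 library was 0.73. Non-pregnant arrays read 0.08, 0.10 and −0.73. They overlapped with the attachment sites of day 13, at 0.49, −0.11 and −0.80, and with the inter-sites, at 0.03, 0.90 and −0.20. The day 18 inter-sites had the widest spread of the 7 groups, at 0.76, 0.57 and −1.01. On the dimmer probe the non-pregnant group was lower than 14 of 18 arrays of pregnant sows, and the changes on day 13, 0.84 at attachment sites and 0.85 at inter-sites, did not pass (adjusted p = 0.425 and 0.448).

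Markers of some other cell types moved with VEGFA. The summed level of 8 conceptus and trophoblast markers (AFP, APOA1, CYP17A1, GATA3, HBE1, IFNG, TFAP2C and TTR; 8 of 13 listed genes were on the array) is given as the mean deviation from each gene's mean over 21 arrays. It was 1.93 to 3.74 at day 24 attachment sites, 0.16 to 2.23 at day 18 attachment sites and −1.64 to 1.10 at day 24 inter-sites, and no marker was below background on every array. The 9 endothelial markers, PECAM1, CDH5 and NOS3 among them, lay at 0.30 to 0.76 at day 24 attachment sites and at −0.44 to 1.12 on day 18. The stromal markers DCN and THY1 lay at 1.33 to 1.92 against −0.37 to 1.08. The 6 endometrial markers lay at 0.69 to 1.08 at day 24 attachment sites against 0.11 to 0.73 on day 18. Over 21 arrays VEGFA correlated with the stromal list at r = 0.783, the endothelial list at 0.734, the endometrial list at 0.710 and the conceptus list at 0.679. After group means were subtracted these values were 0.662 (stromal), 0.651 (endothelial), 0.731 (endometrial) and 0.464 (conceptus). The other lists had lower values over 21 arrays, at 0.490 (macrophage and myeloid), 0.250 (epithelium) and 0.125 (nerve fibre). Those for smooth muscle (−0.215) and T and NK cells (−0.317) were negative. The part of these cell types in the VEGFA result was not tested. In pieces of whole tissue, a different number of cells of a type and a different amount of RNA per cell cannot be told apart.

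**Figure D2:**
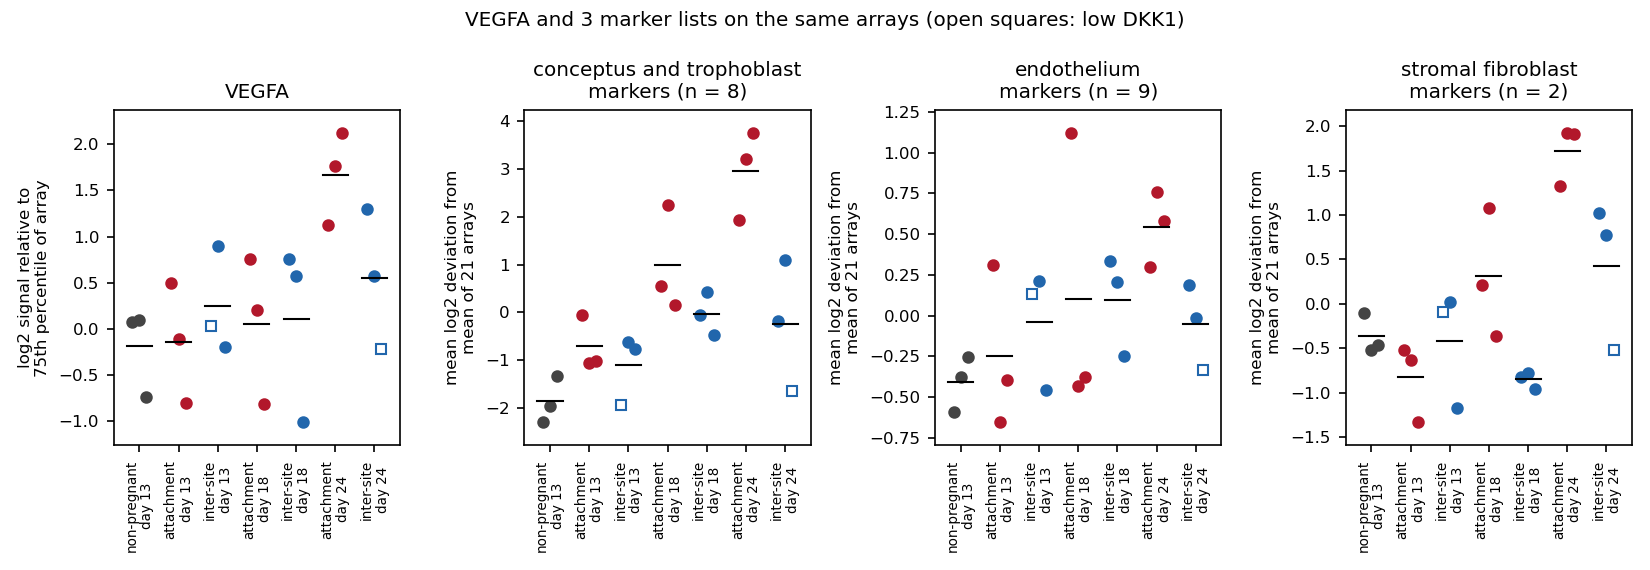
VEGFA (lead probe, log2 level scaled to the 75th percentile) and the mean log2 deviation of 3 marker lists, by group, 3 arrays each with the mean as a line; open squares are the inter-site libraries with low DKK1. Day 24 attachment sites had the highest mean in all 4 panels, with VEGFA at 1.13 to 2.12 and the conceptus list at 1.93 to 3.74.

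ANGPT2 was lowest without pregnancy. The non-pregnant arrays read 0.50, 0.58 and 0.84. Attachment sites of day 13 read 1.67, 0.94 and 1.42, and inter-sites of day 13 read 1.27, 1.25 and 1.29. Neither group overlapped with the non-pregnant one, yet the changes of 0.70 and 0.63 (SE 0.30 each) did not pass (limma adjusted p = 0.197 and 0.280). Across all 18 arrays of pregnant sows, 17 lay above the highest non-pregnant array, and the exception was the low-DKK1 library of day 24 at 0.66. Levels then stayed high at both sites on day 18, at 1.71, 1.04 and 1.31 in attachment sites and at 2.22, 1.81 and 1.01 in inter-sites. On day 24 the attachment sites read 1.78, 2.20 and 1.52 and the inter-sites 1.21, 1.34 and 0.66, with no overlap. That site difference was 0.76 (SE 0.30, adjusted p = 0.484), and 0.56 without the low-DKK1 library. ANGPT2 correlated with the endothelial list at r = 0.742, and at 0.679 after group means were subtracted.

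Of 32 angiogenic ligands and receptors 7 were on the array under a RefSeq name: ANG, ANGPT1, EFNB2, ENG and NOTCH4 besides ANGPT2 and VEGFA. On lead probes 0 of 7 passed in any limma comparison, with at most 2 at an unadjusted p under 0.05, or in the F-test, with 3. ENG, an endothelial co-receptor of the TGF-beta family, changed by 1.19 from day 18 to 24 at attachment sites (SE 0.40, adjusted p = 0.0868). ANG, a secreted ribonuclease that promotes vessel growth, changed by −1.40 from day 13 to 18 at attachment sites (SE 0.38, adjusted p = 0.0642). The median change of the list from day 18 to 24 at attachment sites was 0.41, and 0.23 for the 5 genes other than ANGPT2 and VEGFA. All tested probes had a median of −0.0021.

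**Figure D3:**
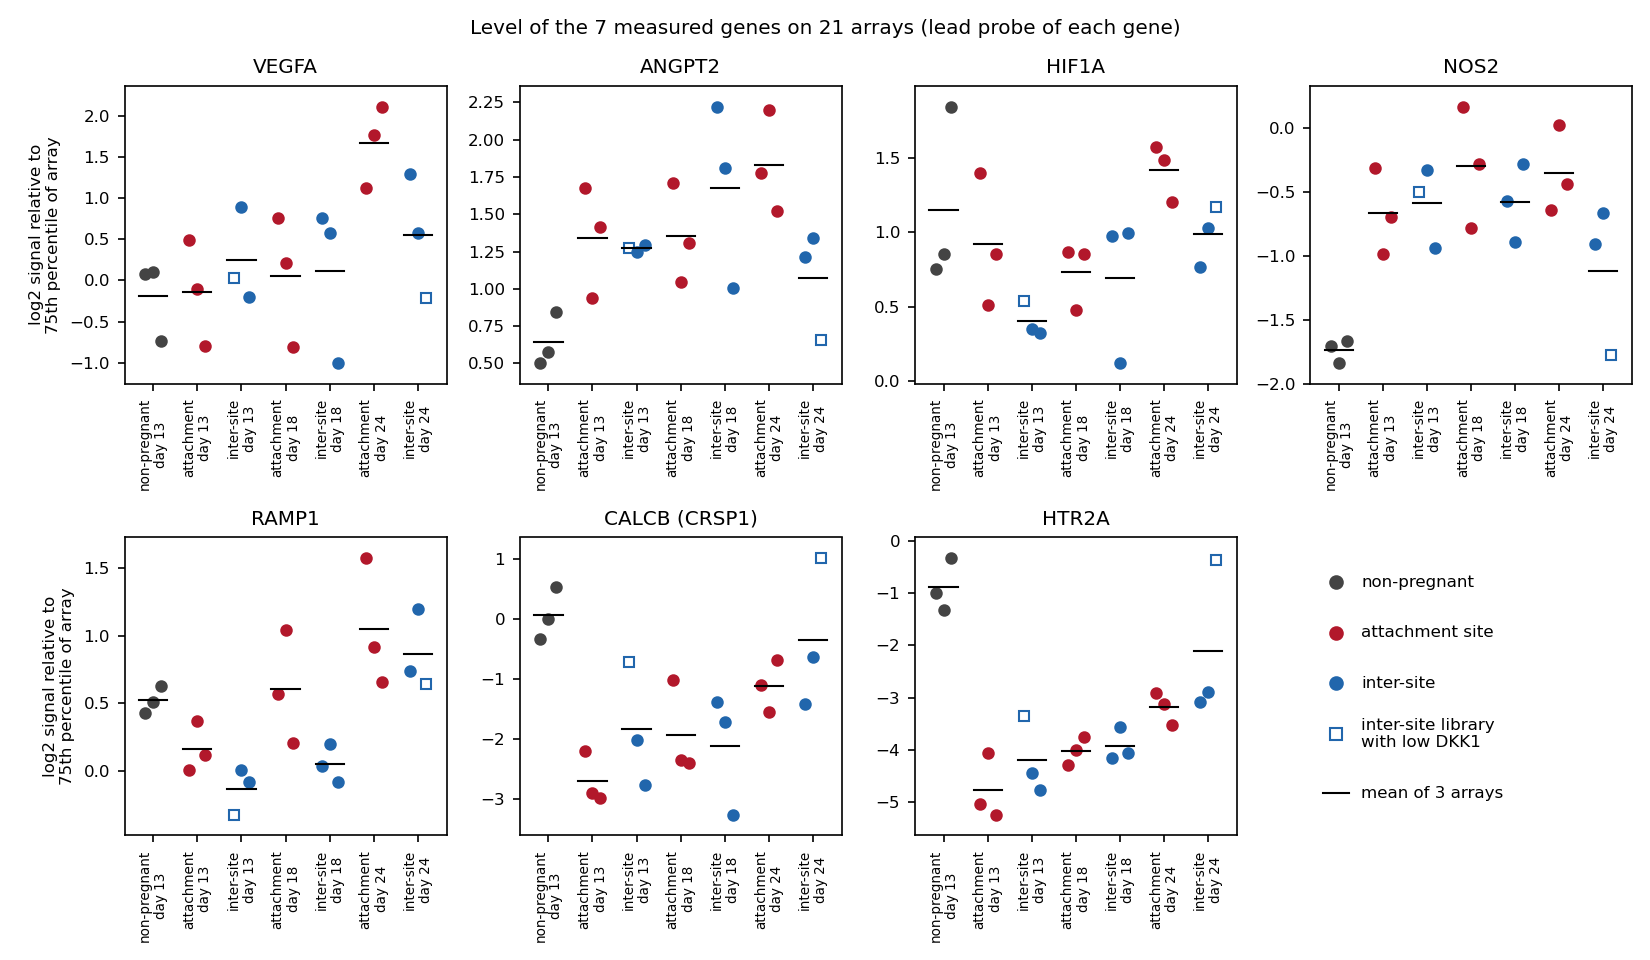
Level of the lead probe (y axis, log2 relative to the array's 75th percentile; each panel has its own scale) of 7 genes in 7 groups (x axis), 3 arrays each with the mean as a line. Open squares are the inter-site libraries with low DKK1; replicate 3 of the day 24 inter-sites lies with the non-pregnant arrays or beyond them for ANGPT2, NOS2, CRSP1 and HTR2A.

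HIF1A gave no single picture, because its 2 probes disagreed (r = 0.281 over 21 arrays, −0.26 after group means were subtracted). The lead probe read 0.76, 0.85 and 1.85 in the non-pregnant group, 1.40, 0.51 and 0.85 at day 13 attachment sites and 0.54, 0.35 and 0.32 at day 13 inter-sites. It read 0.87, 0.48 and 0.86 at day 18 attachment sites and 0.97, 0.12 and 0.99 at day 18 inter-sites. The highest group mean was that of day 24 attachment sites, at 1.58, 1.49 and 1.21, followed by the non-pregnant group; day 24 inter-sites read 0.76, 1.03 and 1.17. No comparison passed on this probe, and its F-test had an adjusted p of 0.190.

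The dimmer HIF1A probe passed the F-test (limma adjusted p = 0.0326). It read −0.86, −1.02 and −1.07 in the non-pregnant group against −1.76, −1.69 and −1.70 at day 13 attachment sites, without overlap. The difference of −0.73 (SE 0.26) had an adjusted p of 0.138. At inter-sites it read −1.03, −1.46 and −1.46 on day 13, −1.78, −1.56 and −2.32 on day 18, and −0.92, −0.91 and −0.78 on day 24. The step from day 18 to 24 was 1.02 (SE 0.26, adjusted p = 0.105) and stayed at 0.97 without the low-DKK1 libraries. At attachment sites the same step was 0.64 (adjusted p = 0.153), from −0.86, −1.19 and −2.10 to −0.98, −0.52 and −0.72. Both probes thus had day 24 attachment sites as the group with the highest mean.

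Among 33 hypoxia factors and HIF target genes 12 were on the array and 10 were tested. PGK1, a glycolytic enzyme, fell by 0.94 at day 13 inter-sites against the non-pregnant group (SE 0.19, adjusted p = 0.0405). It rose by 0.66 from day 18 to 24 at attachment sites (SE 0.19, adjusted p = 0.0480). LDHA, which makes lactate, passed the F-test with PGK1 (adjusted p = 0.0128 and 0.00239) and changed by 1.85 from day 18 to 24 at inter-sites (adjusted p = 0.0781). No other gene of the list passed in a comparison; HIF1A and VEGFA belong to it through their lead probes, which did not.

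NOS2 was lowest in non-pregnant sows. Its lead probe read −1.70, −1.84 and −1.66 there. Day 13 attachment sites read −0.31, −0.99 and −0.70, and day 13 inter-sites read −0.50, −0.33 and −0.94. Both groups lay wholly above the non-pregnant one, by 1.07 (2.10-fold) and 1.15 (2.22-fold; SE 0.31 each), and both missed the threshold in limma (adjusted p = 0.0726 and 0.0844). With both low-DKK1 libraries left out of the fit the attachment-site change passed (adjusted p = 0.0329) and the inter-site change of 1.10 did not (adjusted p = 0.0586). The libraries left out were picked from these data, so that call is no added support. Later days stayed in this range or above, at 0.17, −0.78 and −0.28 in day 18 attachment sites, −0.57, −0.89 and −0.28 in day 18 inter-sites and −0.65, 0.02 and −0.44 in day 24 attachment sites. Day 24 inter-sites read −0.91, −0.66 and −1.78, and the last of these, the low-DKK1 library, was the only array of a pregnant sow at the non-pregnant level. The F-test over 7 groups passed (adjusted p = 0.0318). The endothelial markers lay at −0.59 to −0.26 in the non-pregnant group, at −0.65 to 0.31 at day 13 attachment sites and at −0.46 to 0.21 at day 13 inter-sites, and the 7 macrophage and myeloid markers at −1.13 to 0.18, −0.61 to 1.39 and −0.84 to 1.20. NOS2 correlated with the endothelial list at r = 0.659, the conceptus list at 0.575 and the macrophage list at 0.477 (0.655, 0.242 and 0.430 after group means were subtracted); their part in the NOS2 result was not tested.

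The NOS2 probes did not all tell the same story. A second probe, A_72_P441199, followed the lead probe and also had 17 of 18 arrays of pregnant sows above every non-pregnant array. Its day 13 changes were 0.98 at attachment sites and 1.05 at inter-sites (adjusted p = 0.159 and 0.172), and it read −4.49, −4.64 and −4.88 in the non-pregnant group, where 2 of 3 arrays were above background. With normexp background correction its change at attachment sites turned to −0.20. The probes A_72_P373153 and A_72_P413773 stayed between −5.91 and −3.38 and between −4.90 and −3.48, correlated with the lead probe at r = 0.131 and −0.262, and had F-tests at adjusted p = 0.945 and 0.995. The files do not say which transcripts or exons these probes reach.

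**Figure D4:**
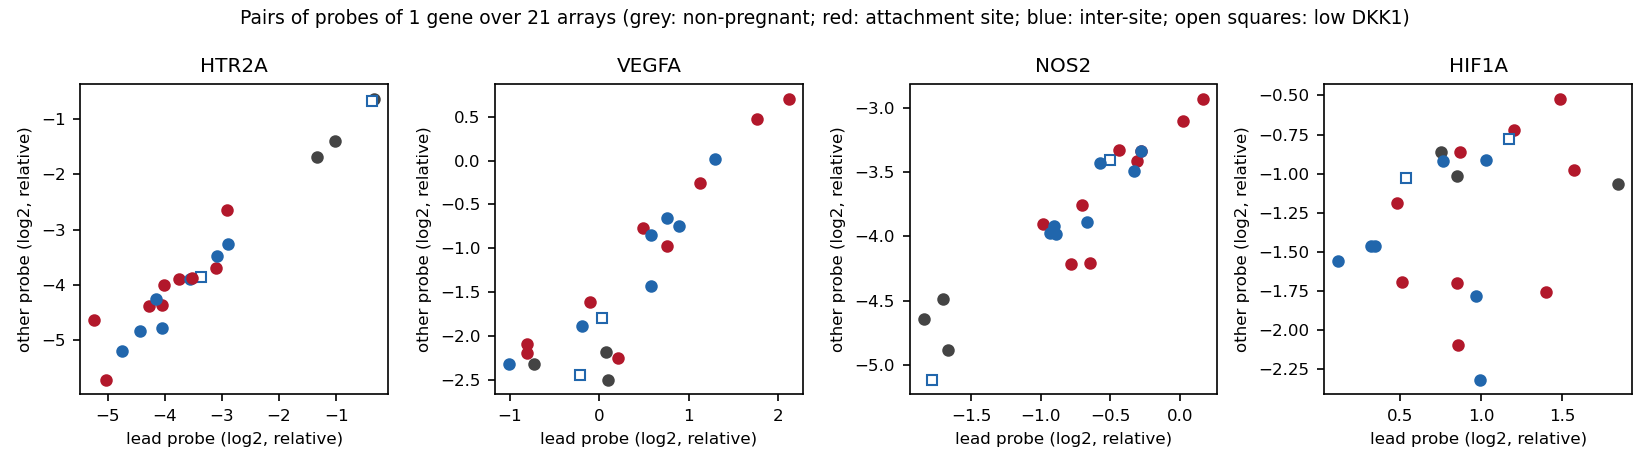
The lead probe (x axis) against another probe of the same gene (y axis), both as log2 relative to the array's 75th percentile, for HTR2A, VEGFA, NOS2 (A_72_P441199) and HIF1A over 21 arrays; colours mark non-pregnant (grey), attachment site (red) and inter-site (blue), open squares low DKK1. The first 3 pairs rise together, with r = 0.913 for VEGFA, and the HIF1A pair does not (r = 0.281).

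Of 18 genes listed for the nitric oxide pathway 8 were tested, and 1 besides NOS2 passed any test. That gene, HMOX1, degrades haem and makes carbon monoxide rather than nitric oxide. HMOX1 rose by 4.07 from day 18 to 24 at attachment sites (SE 0.51, limma adjusted p = 0.000540). Its changes of 2.36 at inter-sites over the same days and of 2.45 between sites on day 24 did not pass (adjusted p = 0.0662 and 0.0550). NOS3, ARG1, CAV1, PRKG1, SLC7A1 and SLC7A2 passed in no comparison.

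CRSP1 fell in pregnancy at attachment sites on day 13. The non-pregnant arrays read −0.33, 0.00 and 0.53. The attachment sites read −2.20, −2.90 and −2.99, with no overlap. CRSP1 fell by 2.76 (SE 0.63), 6.78-fold, with a limma adjusted p of 0.0383. Inter-sites on day 13 read −0.72, −2.01 and −2.76, and their difference of −1.90 (SE 0.63) did not pass (adjusted p = 0.146). The highest of these arrays was the low-DKK1 library. With both such libraries left out the difference was −2.45 (limma adjusted p = 0.0246), after a choice made from these data. At attachment sites the change was −2.20 and −3.52 within the 2 slides that held both groups, and −2.72 with the slide as a block (adjusted p = 0.123). It kept its direction without any 1 array of the 2 groups, between −3.01 and −2.53, and lost the call each time (adjusted p from 0.0722 to 0.126).

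On later days CRSP1 was less low and more scattered. Attachment sites read −1.02, −2.36 and −2.40 on day 18 and −1.10, −1.54 and −0.69 on day 24. Inter-sites read −1.39, −1.71 and −3.26 on day 18. They read −1.42, −0.63 and 1.02 on day 24, where the highest array was again the low-DKK1 library, above even the non-pregnant range. The step from day 18 to 24 at inter-sites was 1.78 (SE 0.63, adjusted p = 0.211) and 1.09 without that library. In all, 17 of 18 arrays of pregnant sows lay below every non-pregnant array.

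The other CALCB gene, CGRP, stayed between −8.81 and −6.84 on all 21 arrays, none of them well above background, so no change is given for it. RAMP1, the receptor partner of CGRP, was measured well on every array. It read 0.43, 0.51 and 0.63 in the non-pregnant group and 0.01, 0.37 and 0.12 at day 13 attachment sites. Inter-sites on day 13 read −0.32, 0.01 and −0.08, below every non-pregnant array, by 0.65 (SE 0.25, adjusted p = 0.192). Day 18 inter-sites stayed low at 0.04, 0.20 and −0.08, and day 18 attachment sites were higher at 0.57, 1.04 and 0.21, a difference of 0.55 (SE 0.25, adjusted p = 0.982) without overlap. On day 24 both sites were high, at 1.57, 0.92 and 0.66 and at 0.74, 1.20 and 0.64. The step from day 18 to 24 at inter-sites was 0.81 (SE 0.25, adjusted p = 0.150), also without overlap, and 0.92 without the low-DKK1 libraries. None of the 9 comparisons between 2 groups passed, while the F-test over 7 groups did (limma adjusted p = 0.0213). RAMP1 had its lowest mean at day 13 inter-sites and its highest at day 24 attachment sites, a pair that was not compared directly. RAMP1 correlated with the 2 stromal markers at r = 0.717, the endometrial list at 0.711 and the conceptus list at 0.549. After group means were subtracted these values were 0.241, 0.121 and 0.308. The highest values after subtraction were those of the nerve fibre list (0.583) and the smooth muscle list (0.437), which stood at 0.455 and 0.319 before it. The part of these cell types in the RAMP1 levels was not tested.

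The calcitonin peptide family was listed as 10 symbols. On the array were 8 genes, with CGRP and CRSP1 counted apart under the symbol CALCB. Of these 6 were tested (CRSP1, RAMP1, RAMP2, RAMP3, CALCRL and ADM). CALCRL, the receptor that RAMP1 completes, had its largest difference between sites on day 13, −0.72 (SE 0.40, adjusted p = 0.581). ADM, adrenomedullin, a vasodilator peptide, differed by 1.80 from day 18 to 24 at attachment sites (SE 0.78, adjusted p = 0.176). Besides CRSP1 and RAMP1 none of the 6 passed a comparison or the F-test.

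HTR2A had the largest change among the members, and it was lower in pregnancy. On its lead probe the non-pregnant arrays read −1.01, −1.33 and −0.33. Day 13 attachment sites read −5.03, −4.05 and −5.23, and day 13 inter-sites read −3.36, −4.44 and −4.76. At attachment sites the probe fell by 3.88 (SE 0.56), 14.7-fold, with a limma adjusted p of 0.00904. At inter-sites it fell by 3.29 (SE 0.56), 9.80-fold, with an adjusted p of 0.0255. No array of either day 13 group came near the non-pregnant range, and 2 of 3 attachment arrays were well above background, so the level there was close to the limit of detection. The second probe fell by 3.66 (SE 0.61, adjusted p = 0.0135) at attachment sites and fell by 3.39 (SE 0.61, adjusted p = 0.0287) at inter-sites, and the probes correlated at r = 0.977. It read −1.40, −1.70 and −0.63 without pregnancy against −5.72, −4.37 and −4.63 at attachment sites and −3.86, −4.83 and −5.20 at inter-sites.

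HTR2A kept its direction under every alternative run, while its call depended on the setting. Within slides that held both groups it was −3.69 and −4.90 at attachment sites and −4.11 and −2.35 at inter-sites. With the slide as a block it was −4.03 and −2.98 (adjusted p = 0.0592 and 0.209). With libraries that matched at on-off probes as a random block, no member probe passed in either comparison (lowest adjusted p = 0.0679 at attachment sites and 0.0991 at inter-sites). Without either of non-pregnant replicates 1 and 2, which matched each other, no member passed in these comparisons (lowest adjusted p = 0.0507 and 0.0544 at attachment sites, 0.136 and 0.0942 at inter-sites). The inter-site call of both probes was also lost without replicate 2 or 3 of the day 13 inter-sites (lead probe adjusted p = 0.186 and 0.0880), and the attachment-site call of the dimmer probe without replicate 1 or 2 of that group (adjusted p = 0.0554 and 0.0647). With normexp background correction the differences were −1.89 and −1.19 (adjusted p = 0.159 and 0.548). Without both low-DKK1 libraries, which were picked from these data, they were −3.88 and −3.71 (adjusted p = 1.65e-05 and 0.000138).

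After day 13 HTR2A was partly higher again. Day 18 attachment sites read −4.28, −4.01 and −3.74 and inter-sites −4.15, −3.56 and −4.05. Day 24 attachment sites, at −2.91, −3.11 and −3.53, lay above every day 18 array, but the step of 0.83 (SE 0.56) did not pass (adjusted p = 0.392). Day 24 inter-sites read −3.09, −2.89 and −0.37. The last value is the low-DKK1 library and falls in the non-pregnant range; the step from day 18 of 1.80 (adjusted p = 0.161) was 0.93 without it. All 17 other arrays of pregnant sows lay below every non-pregnant array, on both probes.

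The 5 smooth muscle markers on the array (ACTA2, CNN1, DES, MYLK and PLN, of 12 listed) differed strongly between arrays of 1 group. They lay at 2.80, 2.67 and −1.78 in the non-pregnant group, at −1.62, 1.97 and −1.46 at day 13 attachment sites and at −1.56, −1.64 and −1.32 at day 13 inter-sites. HTR2A correlated with this list at r = 0.167, and at −0.14 after group means were subtracted. The T and NK cell list, with 10 markers, was highest of its group in non-pregnant replicate 3 (−0.46, −0.60 and 0.78). It correlated with HTR2A at −0.08, and at 0.310 after group means were subtracted. Among all marker lists the values after subtraction ran from −0.545 (conceptus) to this 0.310. The part of these cell types in the HTR2A result was not tested.

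Of 20 serotonin pathway genes 9 were on the array and 6 were tested. HTR1D, another serotonin receptor that constricts vessels, rose by 3.08 from day 18 to 24 at attachment sites (SE 0.82, limma adjusted p = 0.0363) and passed the F-test (adjusted p = 0.0467). Its difference of 2.49 between sites on day 24 did not pass (adjusted p = 0.336). HTR4, HTR7, MAOA and MAOB, the latter pair being enzymes that degrade serotonin, passed in no comparison.

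Neighbouring groups were hard to separate. When the 7 group means of each gene were ordered, the ranges of 40 of 42 neighbouring groups overlapped on lead probes. The exceptions were HTR2A between day 24 attachment sites (−3.18 ± 0.32, SD, n = 3) and day 18 inter-sites (−3.92 ± 0.32), and RAMP1 between the non-pregnant group (0.52 ± 0.10) and day 13 attachment sites (0.16 ± 0.18). The order for HTR2A ran from the non-pregnant group (−0.89 ± 0.51) over day 24 and day 18 to day 13 attachment sites (−4.77 ± 0.63). For CRSP1 it had the same ends, at 0.07 ± 0.43 and −2.70 ± 0.43. For NOS2 it ran from day 18 attachment sites (−0.30 ± 0.48) down to the non-pregnant group (−1.74 ± 0.09), and for ANGPT2 from day 24 attachment sites (1.83 ± 0.34) to the non-pregnant group (0.64 ± 0.18). For VEGFA it ran from day 24 attachment sites (1.67 ± 0.50) to the non-pregnant group (−0.18 ± 0.48), and for RAMP1 from day 24 attachment sites (1.05 ± 0.47) to day 13 inter-sites (−0.13 ± 0.17). The lead probe of HIF1A had the same ends as RAMP1, at 1.42 ± 0.19 and 0.40 ± 0.12. Whether a site difference changed from day 13 to 18 or from 18 to 24 was tested as an interaction, and 0 of 13 member probes passed in limma, where 0% and 0.00997% of all did; 1 and 2 member probes had an unadjusted p under 0.05, beside 7.93% and 3.2% of all. The largest for a member was VEGFA's dimmer probe from day 18 to 24, at 1.74 (SE 0.81, limma adjusted p = 0.9999).

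Over the 21 arrays HTR2A and CRSP1 correlated at r = 0.856 (0.579 after group means were subtracted), and each ran against NOS2 at −0.757 and −0.550. ANGPT2 ran with NOS2 at 0.733 and with VEGFA at 0.542. These values describe arrays that share groups and the scaling to a percentile. Among 2012 named genes with a tested lead probe, those whose levels were most like a member's were the following, by Pearson r over 21 arrays. CXCL8, a neutrophil chemokine, RANBP1 and CRSP1 itself came first for HTR2A (0.909, 0.859 and 0.856). MYC, THOP1 and DMBT1 came first for CRSP1 (0.900, 0.888 and 0.872). For NOS2 these were ANPEP, DKK1 and SULT1E1, a sulfotransferase that inactivates oestrogen (0.789, 0.771 and 0.746). ANGPT2 was most like CD36, EDN1 (endothelin 1, a vasoconstrictor) and PLAGL1 (0.797, 0.779 and 0.776). VEGFA was most like CPT1A, PSAP and WFDC2 (0.901, 0.886 and 0.867), HIF1A like RAB28, EIF4A3 and H2AFZ (0.864, 0.840 and 0.825), and RAMP1 like SERPINA3-2, WDR83OS and TIMP1 (0.857, 0.856 and 0.854). After group means were subtracted, the values for these most similar genes ran from 0.335 (RAMP1 with WDR83OS) to 0.881 (ANGPT2 with EDN1). For NOS2 they were 0.364, 0.456 and 0.586.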

How the data were processed

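The deposited scanner files hold processed spot intensity, background-subtracted in Feature Extraction software (10.7 per the submitters' processing notes; headers of the deposited files name 10.7.3.1), with no step between arrays recorded. The authors' deposited table of processed values, on the log2 scale (median 5.85 per array), served as an alternative; 19 of its 21 columns correlated best with their own scanner file. The other columns, day 24 inter-site replicates 2 and 3, each correlated best with the other's, so the replicate number of the low-DKK1 library of day 24 follows the scanner files and is in doubt, while its group is the same either way. Each array's log2 processed signal was reduced by its 75th percentile (354 to 854 in intensity units), and 62.3% to 77.1% of an array's probes exceeded background well. Control spots and outlier spots were left out, replicate spots were averaged, and no spot was saturated. Probes well above background on all 3 arrays of a group were tested (30094; 13509 were not). Probes were named through their RefSeq accession (5461 of 5779 probes with one matched 1 symbol).

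A limma model (3.58.1, R 4.3.3) gave each of the 7 groups a mean over all 21 arrays (14 residual, 2.71 prior degrees of freedom). P-values were adjusted by Benjamini-Hochberg over all tested probes of a comparison, with 0.05 as the threshold. The number of arrays limits the precision.

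Alternatives were quantile or median scaling, normexp (offset 50) on median spot and background intensity, since the mean signal named in the design is not in the files used here, no filter or a stricter one on dim probes, slide, replicate number or matched libraries as blocks, fits of only the groups compared, and leaving out arrays. On-off probes had a gap of at least 1.5 log2 units with at least 4 arrays on each side, a setting chosen after seeing the data. Libraries were joined into blocks by average linkage, where the mean match between the sets joined was 80% or more. A single pair above 80% could therefore fall in different blocks. Replicate 1 of the day 18 attachment sites and replicate 1 of the day 24 inter-sites did so at 84.0%. Replicate numbers did not pair the arrays: the correlation of deviations of same-numbered arrays ranged from −0.28 to 0.49. Named are all members, the list genes that passed (up to 5 a list and comparison) or had the 2 largest changes, and the 3 most similar genes. The members and lists were chosen with earlier results of these data known. Not every gene that the naming rule picks is reported here.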

Additional observations from a re-analysis of the deposited data

How the results depend on the processing

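Member probes that passed varied with the setting. For pregnancy at attachment sites (3 of 13) 0 passed with normexp, with the slide as a block and with matched libraries as a random block, 1 with only probes above background on all arrays, and 0 to 2 without 1 array. For pregnancy at inter-sites (2) 0 passed with normexp, without a filter, with the slide block and with the matched-library block. There were also 0 with only the 2 groups in the fit, and 0 to 2 without 1 array. With the stricter filter 0 passed as well, where HTR2A was not tested. For attachment sites from day 18 to 24 (1) 0 passed with normexp, without a filter, with the slide block and with only the 2 groups, 2 with the replicate block and 2 with the matched-library block, and 0 to 1 without 1 array. In the F-test (6) 0 passed with normexp, 3 without a filter, 2 with the slide block and 2 to 7 without 1 array. With the replicate block 8 member probes passed the F-test; apart from this and the rise from 1 to 2 named above, the block changed no count of members. Quantile scaling, median scaling and the authors' deposited table gave the same counts of members. The deposited table nearly repeated quantile scaling, with the lead HTR2A probe at −3.74 in both for pregnancy at attachment sites. These 2 settings are therefore not separate checks, though each is counted among the settings below. Of 551 values of 32 single changes under alternatives, 498 kept direction and side of the threshold, 48 lost the call, 4 gained it and 1 reversed, the NOS2 probe A_72_P441199 with normexp (−0.20). A change that had not passed counts as kept where it still did not, so all 48 losses fell on changes that had passed. CRSP1 on day 13 kept its call in 7 of 11 other settings and in 0 of 6 fits without 1 array. The dimmer VEGFA probe kept it in 7 of 11 and 2 of 6. The HTR2A lead probe had 7 of 10 and 4 of 6 at attachment sites. At inter-sites it had 5 of 10 and 2 of 6. The dimmer HTR2A probe differed only by 2 of 6 at attachment sites. The causes were not tested. Normexp moved the median change of all tested probes to −0.26 for pregnancy at attachment sites and to 0.25 from day 18 to 24 at attachment sites, from −0.06 and −0.0021. Over the whole array, 538 probes passed for pregnancy at attachment sites, 27 with normexp (19 higher and 8 lower, against 253 and 285), 182 without a filter, 1962 without both low-DKK1 libraries, 1292 with only the 2 groups, and 0 with a block by slide or matched library; without 1 array there were 0 to 660. For inter-sites 135 passed, 0 with normexp, 7 without a filter, 275 under the stricter filter, 1158 without both low-DKK1 libraries, 1 with only the 2 groups, 0 with either block and 0 to 610 without 1 array. From day 18 to 24 at attachment sites 1698 passed (1170 higher and 528 lower), 221 with normexp (179 and 42), 393 with the slide block, 491 with only the 2 groups and 261 to 1628 without 1 array. Without both low-DKK1 libraries, which were picked from these data, 4 and 3 member probes passed for pregnancy at the 2 sites. Signal over background was 2.35 to 3.92 on the median probe, which limits what can be said of HTR2A on day 13, of the dim NOS2 probes and of CGRP.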

Other observations

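Of 37 other vasoactive peptides, enzymes and receptors 16 were on the array and 13 were tested. In limma 0 of 13 passed in a comparison between 2 groups (3 had an unadjusted p under 0.05 for pregnancy at attachment sites, where 20.3% of all did). OXTR, the oxytocin receptor, differed by −2.61 at day 13 attachment sites from the non-pregnant group (SE 0.82, adjusted p = 0.0944). EDNRB, an endothelin receptor, differed by 2.16 between sites on day 24 (SE 0.98, adjusted p = 0.598). The median change of this list for pregnancy at attachment sites was −0.08, close to the −0.06 of all tested probes.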
